A study of Mus musculus with 11 samples.

Results

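The cytosolic RNA and DNA sensors of mouse neuroblastoma were followed across 4 treatments, as the RNA levels of Ifih1, Ddx58, Dhx58, Mavs, Tlr3, Mb21d1, Tmem173, Trex1, Ifi204 and Aim2. These 10 genes, chosen by symbol, are 10 of the 24411 genes in the deposited table, and all 10 passed the filter on low values. The tumours arose in homozygous Th-MYCN mice, whose MYCN transgene is driven by the tyrosine hydroxylase promoter and so acts in cells of the sympathetic lineage, and every group carried it. Mice were dosed once when the tumour measured about 5 mm, and the tumour was collected 16 h later. Vehicle went to 3 mice by the intraperitoneal route, CBL0137 to 3 mice at 40 mg/kg by the intravenous route, panobinostat at 5 mg/kg by the intraperitoneal route to 2 mice (replicates 1 and 3), and both agents together to 3 mice. CBL0137 is a curaxin, a DNA-binding compound that traps the histone chaperone FACT on chromatin, and panobinostat inhibits histone deacetylases. Panobinostat replicate 2 was not analysed here. The age and sex of the mice and the strain beyond the transgene were not given in the sources used here.

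Cells recognise foreign or misplaced nucleic acid with receptors that stand ready in the cytosol and in endosomes. RIG-I (Ddx58) and MDA5 (Ifih1) bind double-stranded RNA and signal through the mitochondrial adaptor MAVS, whereas TLR3 reads double-stranded RNA in endosomes. cGAS (Mb21d1) binds double-stranded DNA and makes a cyclic dinucleotide that switches on STING (Tmem173), both routes ending in type I interferon, and many of the sensors are themselves induced by interferon. TREX1 degrades cytosolic DNA, and the PYHIN family, which includes Ifi204 and Aim2, holds DNA-binding proteins that reach STING or the inflammasome.

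Levels are in TPM, transcript abundance scaled for gene length and to the same total of 1000000 in each library, so levels of different genes can be set side by side. TPM carry no counts, so the depth behind each value is unknown and no counting interval can be given. The tumour label held against 2 sympathoadrenal markers, enzymes of catecholamine synthesis. Th was 99.6 to 179 TPM in vehicle, 248.6 to 342 after CBL0137, 121 to 215 after panobinostat and 150 to 416 after both drugs. Dbh was 14.8 to 48.9, 90.5 to 107, 53.7 to 56.8 and 53.0 to 106 TPM in the same order. Markers of other cells moved with treatment. The summed level of 14 macrophage and monocyte genes was 830 to 1018 TPM in vehicle, 1763 to 3552 after CBL0137, 4428 to 5555 after panobinostat and 7141 to 10568 after both, with no marker at 0 throughout a group. Of these 14 markers, 8 rose after CBL0137 and 14 after panobinostat and after both. Of all tested genes 4.99%, 25.5% and 35.9% rose after CBL0137, panobinostat and both. B cell genes summed to at most 2.52 TPM in vehicle but to 156 in CBL0137 replicate 3 and 57.3 in combination replicate 1. Fibroblast and pericyte genes (9) summed to 241 to 419.7 TPM in vehicle, 529 to 1370 after CBL0137, 2943 to 3294.4 after panobinostat and 3638 to 5238 after both. The sum of 6 neutrophil genes was 3.08 to 18.6, 32.6 to 75.9, 188 to 359.7 and 446 to 619 TPM in the same order, and that of 8 endothelial genes 46 to 71.5, 98.3 to 227, 235 to 262 and 432 to 807. All members of these 3 lists rose after panobinostat and after both drugs, whereas 1, 2 and 3 of them rose after CBL0137. Single libraries also stood apart: skeletal muscle genes summed to 8047 TPM in panobinostat replicate 3 beside 8.4 in replicate 1, to 616 in combination replicate 1 and to 519.96 in CBL0137 replicate 2, adrenal cortex genes to 5270.0 in combination replicate 2 and kidney genes to 411 in vehicle replicate 2. The part of these cells in the results was not tested. The natural killer gene Ncr1 and the cytotoxic gene Gzmb were listed at 0 in every vehicle library. In bulk tissue, fewer cells of a type and less RNA per cell cannot be told apart.

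All 10 genes were low in untreated tumours and highest after both drugs. In vehicle, mean levels ran from 0.367 TPM for Mb21d1 to 9.15 for Trex1, and the 10 genes summed to 21.9 to 24.4 TPM. The sum was 166 to 384 TPM after CBL0137, 100.1 to 119 after panobinostat and 723 to 1326 after both, with no overlap between any of the 4 ranges. Differences were tested by limma on log2(TPM + 1), a scale that understates changes of low genes, in 1 fit of the 4 groups with p adjusted over 15497 genes by Benjamini-Hochberg, and a change was called at an adjusted p below 0.05. After CBL0137, 7 of the 10 rose and 0 fell, against 4.99% of all tested genes that rose and 1.13% that fell. After panobinostat all 10 rose, against 25.5% of genes that rose and 16.9% that fell. After both drugs all 10 rose, against 35.9% that rose and 30.1% that fell. The 3 comparisons share the vehicle libraries. The median log2 change of the 10 was 2.08, 1.76 and 4.24 in that order, where the median over all tested genes was -0.01, 0.10 and 0.08. How all genes divided depended on scaling: quantile normalization turned 3959 rises and 2613 falls after panobinostat into 2451 and 3960, and 5568 and 4666 after both drugs into 4162 and 6678. Under quantile normalization 6 of the 10 were called after panobinostat: the calls of Mb21d1 (log2 difference 0.10, adjusted p = 0.800), Aim2 (0.55, 0.204), Tlr3 (0.66, 0.133) and Trex1 (0.91, 0.0624) were lost, and that of Tmem173 after CBL0137 (1.17, 0.0640). No change called for the 10 genes turned direction under any scaling tried. The labels describe separate mice, so the p-values measure the spread between tumours.

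**Figure D1:**
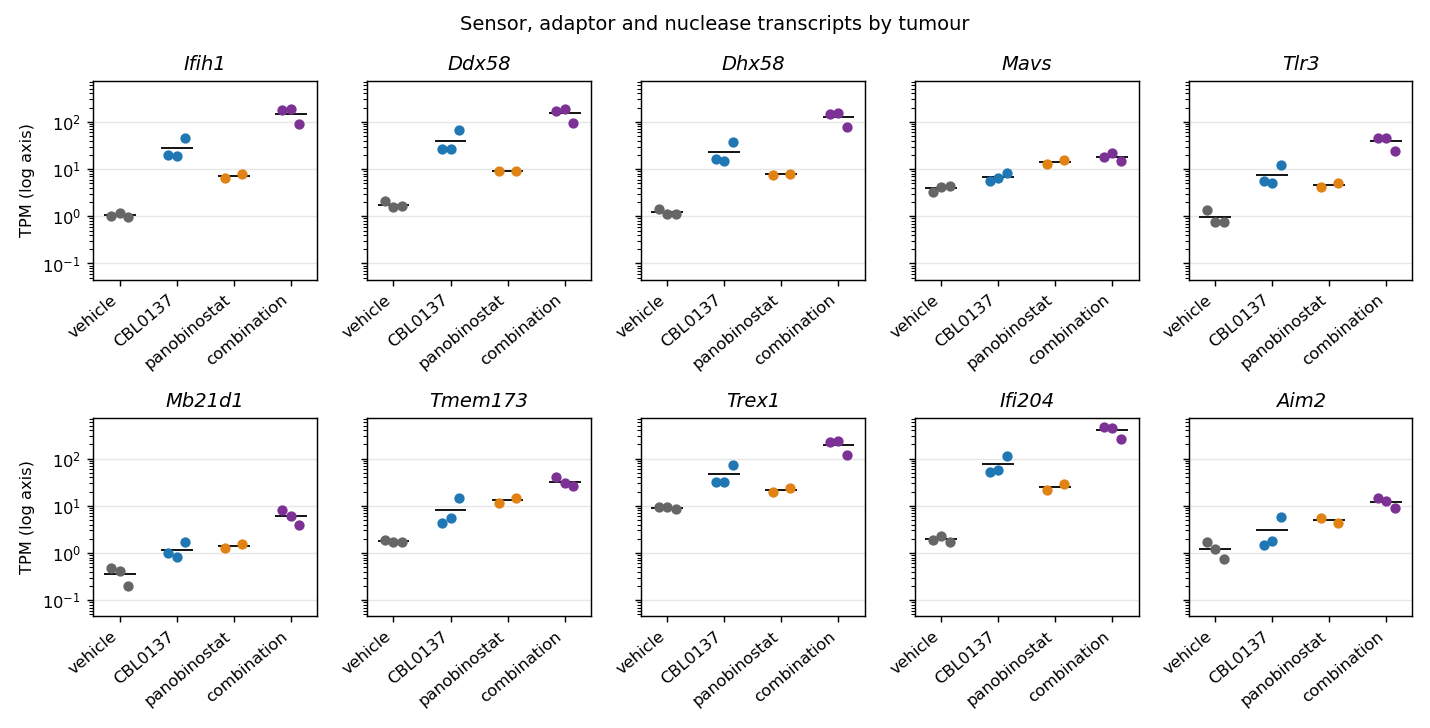
Level of each of the 10 genes in TPM (log axis) by treatment, 1 point per tumour and a bar at the group mean. Combination tumours were the highest for every gene but Mavs, for which their lowest value of 15.1 TPM overlapped the 12.9 to 15.6 after panobinostat.

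Among the RNA sensors of the 10 genes, the RIG-I-like receptors had the largest rises after CBL0137 and after both drugs. Ifih1 (MDA5) lies on chromosome 2 at 62595618 to 62646255 of mm10, Ddx58 (RIG-I) on chromosome 4 at 40203777 to 40239825, and Dhx58 (LGP2), which lacks the signalling domains of the other two and tunes them, on chromosome 11 at 100694884 to 100704271. Promoter windows are shown for 3 genes because this family moved together while its adaptor Mavs, printed last, moved less. They are 300-base windows around annotated start sites from RefSeq (GRCm38.p6, the assembly of mm10), read 5′ to 3′ on the gene's strand, at chr2:62646206-62646505 (minus strand), chr4:40239776-40240075 (minus strand) and chr2:131233813-131234112 (plus strand). Capitals mark matches to GAAANNGAA on either strand, the core of the interferon-stimulated response element.
Ifih1: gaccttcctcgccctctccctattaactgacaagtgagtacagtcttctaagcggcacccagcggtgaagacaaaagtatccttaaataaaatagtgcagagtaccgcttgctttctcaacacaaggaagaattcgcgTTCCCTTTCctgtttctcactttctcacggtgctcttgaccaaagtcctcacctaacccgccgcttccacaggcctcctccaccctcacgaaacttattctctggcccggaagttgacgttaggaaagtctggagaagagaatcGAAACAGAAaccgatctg
Ddx58: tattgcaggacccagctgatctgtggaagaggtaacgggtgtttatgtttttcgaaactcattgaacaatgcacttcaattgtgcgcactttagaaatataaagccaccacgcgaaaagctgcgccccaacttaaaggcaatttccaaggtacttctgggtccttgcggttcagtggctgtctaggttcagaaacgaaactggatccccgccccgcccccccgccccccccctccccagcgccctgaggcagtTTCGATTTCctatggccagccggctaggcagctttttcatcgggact
Mavs: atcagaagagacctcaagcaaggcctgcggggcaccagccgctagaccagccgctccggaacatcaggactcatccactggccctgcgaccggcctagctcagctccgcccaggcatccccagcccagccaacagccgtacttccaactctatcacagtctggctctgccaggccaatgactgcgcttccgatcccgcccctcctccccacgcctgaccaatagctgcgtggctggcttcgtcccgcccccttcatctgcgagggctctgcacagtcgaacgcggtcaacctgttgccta
Windows were used for 7 of the 10 genes, with a second one for Trex1. None was found for Dhx58 and Ifi204, and Tmem173 was left out of the search, so these genes are named only. Of these 7 genes, Ifih1 and Ddx58 held the core, at positions -112 and 33 from the start site in Ifih1 and at 4 in Ddx58, where 8.56% of 32851 windows of the same length hold it. The GAS core TTCNNNGAA, which 8.30% of windows hold, was in none of the 7 genes. The Mavs window held 19 CpG dinucleotides, against 15 in Ddx58, 14 in Ifih1 and a median of 7 over all windows. A match describes letters and shows no binding, and a missing match says only that these letters are not in the window.

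Ifih1 stood at 1.01, 1.2 and 0.99 TPM in vehicle replicates 1 to 3, at 20.4, 18.6 and 46.1 after CBL0137, at 6.61 and 7.80 after panobinostat and at 177, 185 and 90.7 after both drugs. No library of 1 group overlapped another group, and the order was vehicle, panobinostat, CBL0137, combination. The mean went from 1.07 ± 0.116 TPM (SD, n = 3) in vehicle to 28.3 ± 15.4 (n = 3) after CBL0137, a log2 rise of 3.71 ± 0.35 (SE, limma adjusted p = 0.000276). After panobinostat Ifih1 rose by 1.99 ± 0.39 (adjusted p = 0.00318, n = 2), and after both drugs by 6.13 ± 0.35 to 151 ± 52.1 TPM (adjusted p = 3.23e-06).

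Ddx58 followed the same order, with 2.06, 1.56 and 1.63 TPM in vehicle, 26.8, 26.7 and 65.9 after CBL0137, 9.12 and 9.16 after panobinostat and 173, 191 and 96.6 after both. Again no groups overlapped. The log2 rise was 3.76 ± 0.35 after CBL0137 (limma adjusted p = 0.000260), 1.89 ± 0.39 after panobinostat (adjusted p = 0.00402) and 5.76 ± 0.35 after both (adjusted p = 3.91e-06). Dhx58 stood at 1.41, 1.12 and 1.10 TPM in vehicle, 16.4, 14.6 and 38 after CBL0137, 7.59 and 7.81 after panobinostat and 144, 151 and 77.8 after both, again with 4 separate groups. It rose by 3.32 ± 0.34 after CBL0137, 1.98 ± 0.38 after panobinostat and 5.77 ± 0.34 after both (limma adjusted p = 0.000550, 0.00311 and 3.78e-06). A long noncoding gene overlaps each of Ifih1 and Dhx58 in the annotation, and as the counting strand is not given, reads of the overlaps cannot be told apart.

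For these receptors CBL0137 replicate 3 was the highest of its group, as it was for all 10 genes, and it also held the most macrophage (3552 TPM) and B cell transcripts of that group. Without it the rises after CBL0137 were 3.31 for Ifih1, 3.34 for Ddx58 and 2.90 for Dhx58 on the log2 scale, with limma adjusted p of 0.000198, 0.000121 and 0.000295. Combination replicate 3 was the lowest of its group for all 10 genes, and without it the rises after both drugs were 6.46, 6.06 and 6.07 for the same genes. The part of the macrophage and B cell transcripts in these values was not tested.

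Mavs, the adaptor that RIG-I and MDA5 share, lies on chromosome 2 at 131234063 to 131248025 and behaved differently from its receptors. It stood at 3.23, 4.20 and 4.34 TPM in vehicle, 5.51, 6.38 and 8.17 after CBL0137, 12.9 and 15.6 after panobinostat and 18.1, 22.1 and 15.1 after both. The CBL0137 tumours lay above all vehicle tumours, but the difference of 0.64 ± 0.19 did not pass (95% interval 0.21 to 1.06, limma adjusted p = 0.0772). After panobinostat Mavs rose by 1.63 ± 0.21 (adjusted p = 0.000663) and after both drugs by 1.97 ± 0.19 (adjusted p = 1.89e-05). Its receptors were lower than Mavs in vehicle and higher than Mavs after CBL0137: Ddx58 averaged 1.75 ± 0.271 TPM beside 3.92 ± 0.605 for Mavs in vehicle, and 39.8 ± 22.6 beside 6.69 ± 1.36 after CBL0137.

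Tlr3, the endosomal receptor for double-stranded RNA, lies on chromosome 8 at 45395665 to 45411075. It stood at 1.37, 0.77 and 0.76 TPM in vehicle, 5.53, 5.01 and 12.5 after CBL0137, 4.25 and 5.05 after panobinostat and 46.7, 46.4 and 23.8 after both. Each treated group lay above vehicle, while the lowest CBL0137 tumour overlapped panobinostat. Tlr3 rose by 2.05 ± 0.34 after CBL0137 (limma adjusted p = 0.00834), 1.53 ± 0.38 after panobinostat (adjusted p = 0.00991) and 4.30 ± 0.34 after both (adjusted p = 8.95e-06). The panobinostat difference was 0.66 under quantile normalization, not passing, and the call was lost without panobinostat replicate 3 (1.43, adjusted p = 0.0651).

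**Figure D2:**
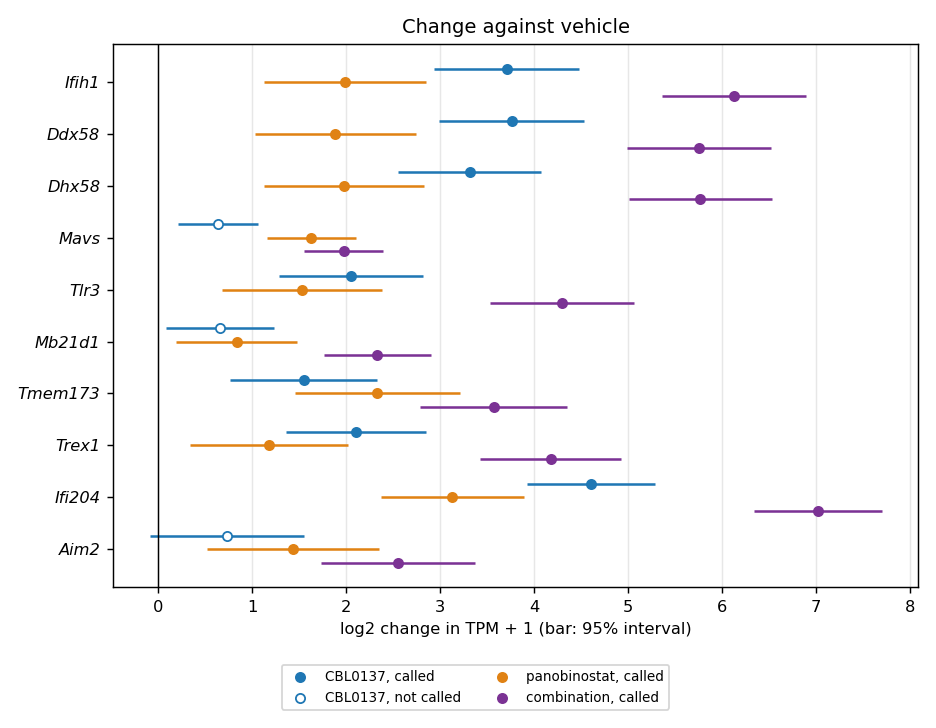
log2 change of each gene against vehicle for the 3 treatments, with 95% intervals; filled points passed limma's adjusted p of 0.05. Only Mavs, Mb21d1 and Aim2 after CBL0137 are open, at 0.64, 0.66 and 0.73.

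On the DNA side, the sensor cGAS was the least abundant of the 10 in every group. Mb21d1 (current symbol Cgas, chromosome 9 at 78430518 to 78443237) stood at 0.49, 0.41 and 0.20 TPM in vehicle, 1.02, 0.81 and 1.70 after CBL0137, 1.28 and 1.58 after panobinostat and 8.33, 5.96 and 3.97 after both. The treated groups lay above vehicle and the combination above all, with CBL0137 and panobinostat overlapping. The CBL0137 difference of 0.66 ± 0.26 did not pass (95% interval 0.08 to 1.23, limma adjusted p = 0.154). Mb21d1 rose by 0.83 ± 0.29 after panobinostat (adjusted p = 0.0399; 0.10 under quantile normalization and 0.26 with a pseudocount of 5, neither passing) and by 2.33 ± 0.26 after both drugs (adjusted p = 3.63e-05). The panobinostat call was lost without vehicle replicate 1, 2 or 3 (adjusted p = 0.0590, 0.0697 and 0.112), without CBL0137 replicate 1 (0.0551) and without panobinostat replicate 1 or 3 (0.0843 and 0.168).

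Tmem173 (current symbol Sting1) encodes STING, the receptor for the cGAS product. It stood at 1.86, 1.74 and 1.71 TPM in vehicle, 4.23, 5.50 and 14.6 after CBL0137, 11.6 and 14.4 after panobinostat and 41.5, 29.9 and 26.1 after both. CBL0137 replicate 3 exceeded both panobinostat tumours, while the other two CBL0137 tumours stayed below them. The log2 rise was 1.55 ± 0.35 after CBL0137 (limma adjusted p = 0.0317), 2.33 ± 0.39 after panobinostat (adjusted p = 0.00162) and 3.57 ± 0.35 after both (adjusted p = 2.08e-05). Without CBL0137 replicate 3 the first of these was 1.07 (adjusted p = 0.0247), and that call was lost without vehicle replicate 1, 2 or 3 (adjusted p = 0.0878, 0.0897 and 0.108).

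Trex1, the DNA exonuclease that limits cGAS signalling, lies on chromosome 9 at 109057932 to 109059723 and was the most abundant of the 10 in vehicle. Its level was 9.42, 9.35 and 8.67 TPM in vehicle, 32.5, 31.8 and 74.8 after CBL0137, 19.8 and 24.4 after panobinostat and 225, 231 and 117 after both. No groups overlapped. Trex1 rose by 2.11 ± 0.34 after CBL0137 (limma adjusted p = 0.00665), 1.18 ± 0.38 after panobinostat (adjusted p = 0.0291) and 4.18 ± 0.34 after both (adjusted p = 9.36e-06). The panobinostat call was lost without any 1 vehicle library (replicates 1, 2 and 3, adjusted p = 0.0594, 0.0591 and 0.0724) and without panobinostat replicate 1 or 3 (0.0654 and 0.147). A readthrough transcript joining Atrip and Trex1 is annotated over the gene, so reads could be shared with it.

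The PYHIN pair differed from each other. Ifi204, a DNA-binding protein that can signal through STING, lies on chromosome 1 at 173747293 to 173767069 among related genes of its family, so reads could be shared between them. It stood at 1.86, 2.29 and 1.74 TPM in vehicle, 52.7, 58.6 and 116 after CBL0137, 21.4 and 28.9 after panobinostat and 473, 451 and 263 after both, with 4 groups apart. Its rises of 4.61 ± 0.31 after CBL0137 (limma adjusted p = 8.45e-05), 3.13 ± 0.34 after panobinostat (adjusted p = 0.000458) and 7.02 ± 0.31 after both (adjusted p = 1.47e-06) were the largest of the 10 in each of the 3 comparisons. It moved from the third place by mean level in vehicle to the first in all treated groups.

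Aim2, the DNA sensor that assembles an inflammasome, lies on chromosome 1 at 173349547 to 173466040, where predicted transcript models run into the neighbouring gene Cadm3. A window at one of its annotated start sites, chr1:173420354-173420653 (plus strand), held a match to the NF-kB letters GGGACTTTC at -154, which 0.353% of all windows hold. It was the one match to these letters among the 7 genes, and the stretch is shown with the match in capitals. Whether the match bears on the level of Aim2 was not tested.
Aim2: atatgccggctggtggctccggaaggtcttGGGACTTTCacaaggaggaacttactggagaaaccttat
Aim2 stood at 1.67, 1.23 and 0.76 TPM in vehicle, 1.46, 1.82 and 5.86 after CBL0137, 5.59 and 4.29 after panobinostat and 14.9, 12.5 and 8.90 after both. CBL0137 replicate 1 lay within the vehicle range, the one such overlap among the 10 genes, while CBL0137 replicate 3 exceeded both panobinostat tumours. The CBL0137 difference of 0.73 ± 0.37 did not pass (95% interval -0.09 to 1.55, limma adjusted p = 0.257) and was 0.27 without replicate 3 (adjusted p = 0.668). Aim2 rose by 1.43 ± 0.41 after panobinostat (adjusted p = 0.0190; 0.55 under quantile normalization, not passing) and by 2.55 ± 0.37 after both drugs (adjusted p = 0.000175). The panobinostat call was lost without vehicle replicate 3 (adjusted p = 0.0618), panobinostat replicate 1 (0.0952) or panobinostat replicate 3 (0.0576).

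The single drugs were compared with each other, with the spread estimated from all 4 groups. Of the 10 genes, 4 were higher after CBL0137 and 1 was lower, against 6.81% of all tested genes higher and 12.1% lower. That split of all genes, 1056 higher and 1879 lower, became 1339 and 1174 under quantile normalization. The genes higher after CBL0137 were the RIG-I-like receptors and Ifi204, by 1.87 for Ddx58 (95% interval 1.01 to 2.73), 1.72 for Ifih1 (0.86 to 2.58), 1.34 for Dhx58 (0.48 to 2.19) and 1.48 for Ifi204 (0.72 to 2.24) on the log2 scale. Their limma adjusted p-values were 0.0150, 0.0184, 0.0385 and 0.0197. Mavs was the gene lower after CBL0137, at 6.69 ± 1.36 TPM (n = 3) beside 14.2 ± 1.94 after panobinostat (n = 2), a log2 difference of -1.0 ± 0.21 (adjusted p = 0.0162). The receptors thus stood higher after one drug and their adaptor after the other. For the remaining 5 genes no difference was shown, with intervals of -0.33 to 1.37 for Tlr3, -0.82 to 0.46 for Mb21d1, -1.66 to 0.09 for Tmem173, 0.09 to 1.76 for Trex1 and -1.62 to 0.21 for Aim2. Macrophage and monocyte markers moved opposite to the receptors here, with 10 of the 14 lower after CBL0137 than after panobinostat and 0 higher, and their part in the result was not tested.

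With only 2 panobinostat tumours, these calls needed both. Without panobinostat replicate 3 limma called 0 of 15343 tested genes (4037 at an unadjusted p below 0.05). The differences then were 1.83 for Ifih1, 1.88 for Ddx58, 1.35 for Dhx58, 1.69 for Ifi204 and -0.87 for Mavs, with adjusted p of 0.0894, 0.0867, 0.140, 0.0815 and 0.105. Without panobinostat replicate 1, Mavs alone of the 5 passed, and Ifih1, Ddx58, Dhx58 and Ifi204 stood at 0.0765, 0.0547, 0.122 and 0.0954. With only the CBL0137 and panobinostat libraries in the fit, 0 of the 5 passed (adjusted p between 0.0550 and 0.0851). The Dhx58 call was also lost without CBL0137 replicate 1 or 2 (adjusted p = 0.0717 and 0.0537) and without vehicle replicate 1, 2 or 3 (0.0533, 0.0551 and 0.0574), and the Mavs call without CBL0137 replicate 1 or 2 (0.0647 and 0.0548). Without CBL0137 replicate 3, Tmem173 and Aim2 were lower after CBL0137 than after panobinostat, by -1.26 and -1.16 (adjusted p = 0.00589 and 0.0176). Leaving out both that library and combination replicate 1, the 2 highest in B cell transcripts, gave the same values for both genes (adjusted p = 0.00444 and 0.0186).

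**Figure D3:**
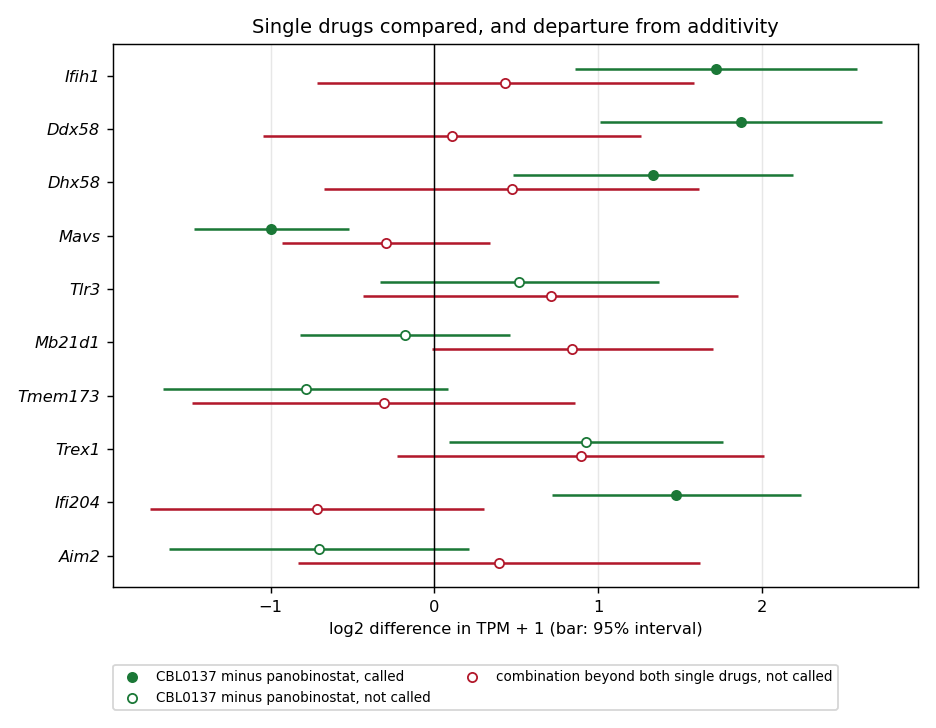
log2 difference between the single drugs (green) and departure of the combination from the sum of both single changes (red), with 95% intervals; filled points passed limma's adjusted p of 0.05. Ddx58, Ifih1, Ifi204 and Dhx58 lie to the right and Mavs to the left for the single drugs, and no red point is filled.

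Giving panobinostat with CBL0137 raised every one of the genes above CBL0137 alone. All 10 rose, against 33.2% of tested genes that rose and 23.7% that fell (5146 and 3678 genes, or 3892 and 5361 under quantile normalization). The log2 rises ran from 1.34 ± 0.19 for Mavs to 2.45 ± 0.34 for Dhx58, with limma adjusted p between 0.000317 and 0.00220. For no gene of the 10 did the groups overlap, but the share of all tested genes without overlap is not given here. Trex1, for example, averaged 46.4 ± 24.7 TPM after CBL0137 and 191 ± 64.0 after both (log2 rise 2.07 ± 0.34, adjusted p = 0.000764). Tmem173 averaged 8.10 ± 5.64 and 32.5 ± 8.01 TPM (2.02 ± 0.35, adjusted p = 0.00104). The macrophage markers also rose in this comparison, 14 of 14, and their part in the result was not tested.

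Compared with panobinostat alone, the combination was higher for 7 of the 10, against 6.24% of tested genes that rose and 4.3% that fell. The 967 rises and 667 falls among all genes became 1502 and 1825 under quantile normalization, and 707 and 1291 after rescaling without small structural RNA and histone genes. The RIG-I-like receptors and Ifi204 rose most, by 4.14 ± 0.39 for Ifih1, 3.87 ± 0.39 for Ddx58, 3.79 ± 0.38 for Dhx58 and 3.89 ± 0.34 for Ifi204 (limma adjusted p = 0.000392, 0.000566, 0.000615 and 0.000319). Trex1 rose by 3.00 ± 0.38, Tlr3 by 2.76 ± 0.38 and Mb21d1 by 1.5 ± 0.29 (adjusted p = 0.00217, 0.00384 and 0.0163). The Mb21d1 call was lost without panobinostat replicate 1 (adjusted p = 0.105) or 3 (0.0578). Mavs, Tmem173 and Aim2, the genes with lower point values after CBL0137 than after panobinostat apart from Mb21d1, did not pass. For Mavs the difference was 0.34 (95% interval -0.13 to 0.82, adjusted p = 0.283) and the groups overlapped. For Tmem173 it was 1.24 (0.36 to 2.11, adjusted p = 0.0660) and for Aim2 1.12 (0.21 to 2.04, adjusted p = 0.0924), with every combination tumour above both panobinostat tumours. Without CBL0137 replicate 3, which enters only through the shared spread, both passed (adjusted p = 0.00702 and 0.0234).

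Whether the drugs together did more than the sum of their single changes was tested as an interaction on the log2 scale, where a sum of changes is a product of TPM ratios. None of the 10 passed limma's test, and 0% of all tested genes were called as above and 0% as below the sum. At an unadjusted p below 0.05 stood 1631 genes (10.5% of those tested) and 0 of the 10, whose lowest p was 0.0538, for Mb21d1. The point values were above 0 for 7 of the 10, from -0.72 for Ifi204 to 0.89 for Trex1, with a median of 0.41 beside -0.02 over all genes. Their 95% intervals had a median width of 2.29, and a departure of 1 log2 unit above the sum lay within the interval of every gene but Mavs, Tmem173 and Ifi204. On the plain TPM scale, the mean gain after both drugs was a multiple of the summed single gains: 4.48 for Ifih1, 4.35 for Dhx58, 4.06 for Ifi204, 3.66 for Tlr3, 3.63 for Trex1, 3.34 for Ddx58 and 3.05 for Mb21d1. It was 1.96 for Aim2, 1.75 for Tmem173 and 1.11 for Mavs. These multiples are descriptions without a test, and they rest on a scale on which proportional changes are not additive.

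Ratios of levels within a library, chosen after the values were seen, showed how the balance of each pathway shifted. The 3 RIG-I-like receptors together stood at 1.39, 0.924 and 0.857 times Mavs in vehicle, 11.5, 9.39 and 18.3 times after CBL0137, 1.81 and 1.59 times after panobinostat and 27.3, 23.9 and 17.5 times after both. The panobinostat ratios lay just above the vehicle range, while every tumour given CBL0137 was above 9. The ratio of Ifi204 to Aim2 was 1.11, 1.86 and 2.29 in vehicle, 36.1, 32.2 and 19.8 after CBL0137, 3.83 and 6.73 after panobinostat and 31.8, 36.1 and 29.5 after both. Between the receptors the balance moved less: Ddx58 stood at 2.04, 1.30 and 1.65 times Ifih1 in vehicle, 1.31, 1.44 and 1.43 after CBL0137, 1.38 and 1.17 after panobinostat and 0.979, 1.04 and 1.07 after both.

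**Figure D4:**
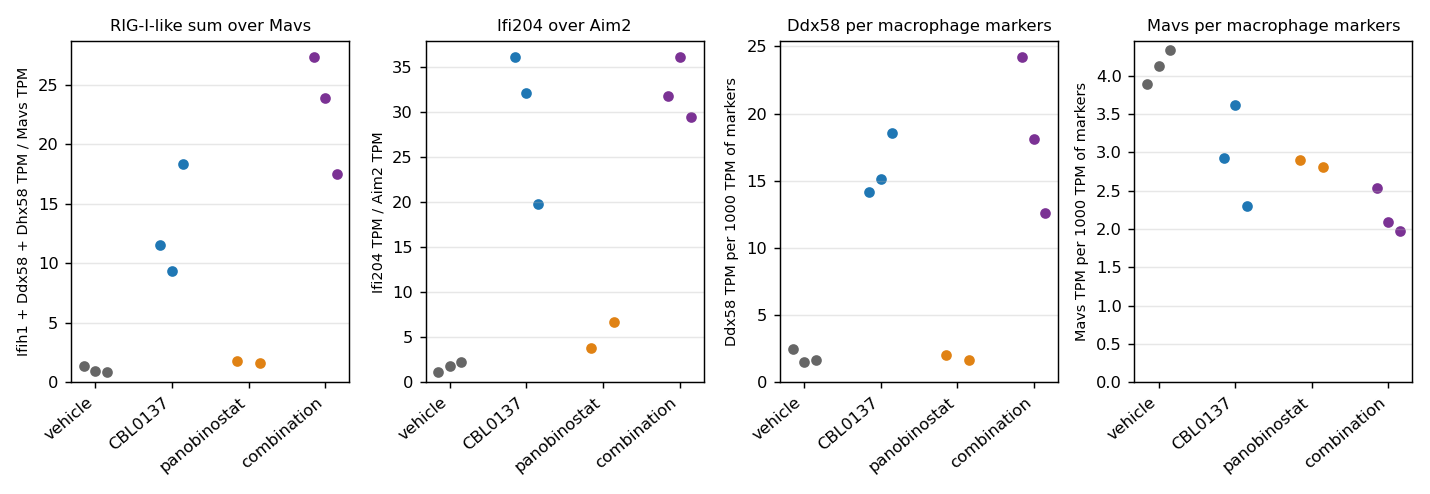
Within-library ratios by treatment, 1 point per tumour: the 3 RIG-I-like receptors over Mavs, Ifi204 over Aim2, and Ddx58 and Mavs per 1000 TPM of macrophage and monocyte markers. The receptor ratio is above 9 in every tumour given CBL0137. The marker sum divides all genes of a library alike, so the panels per marker show levels per marker transcript and no shift between genes.

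Levels were also set against the macrophage and monocyte markers, whose sum was higher in every treated tumour than in vehicle. Much of that sum came from Lyz2. It averaged 631 TPM of a mean sum of 950 in vehicle, and 1378 of 2400 after CBL0137. After panobinostat it was 2631 of 4992, and after both drugs 4042 of 8451. Dividing all genes of a library by the same sum leaves the ratios between genes as they were. Whether a gene lies above or below vehicle on this scale depends on that common divisor. Per 1000 TPM of those markers, Ddx58 was 2.48, 1.53 and 1.63 TPM in vehicle, 14.2, 15.1 and 18.5 after CBL0137, 2.06 and 1.65 after panobinostat and 24.2, 18.1 and 12.6 after both. Ifih1, Ddx58, Dhx58, Tlr3, Tmem173, Trex1 and Ifi204 lay above the vehicle range in every tumour given CBL0137, for Tmem173 by as little as 2.243 beside 2.241. Mb21d1 and Aim2 overlapped vehicle after CBL0137 and after both drugs, and Mavs lay below vehicle in all treated tumours (1.98 to 3.62 beside 3.89 to 4.33). After panobinostat, Ifih1, Tmem173 and Ifi204 lay above the vehicle range, Mavs and Trex1 below it, and the other 5 overlapped it. Which cells held the transcripts was not tested.

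The rest of the pathway, in lists chosen with earlier results of these data known, moved unevenly along its length. Among 14 adaptors and kinases, 2 rose after CBL0137, namely the Toll-like receptor adaptor Myd88 by 1.70 ± 0.25 and the kinase Ikbke by 1.74 ± 0.33 (limma adjusted p = 0.00463 and 0.0158). The Ikbke call was lost without vehicle replicate 1, 2 or 3 (adjusted p = 0.0545, 0.0507 and 0.0705). After panobinostat 4 rose and 1 fell, and after both drugs 10 rose and 2 fell, with list medians of 0.11, 0.23 and 0.55. The panobinostat count was near the 25.5% and 16.9% of all genes that rose and fell. Of all genes 4.99% rose after CBL0137, and 35.9% rose and 30.1% fell after both drugs. Tbk1, the kinase downstream of MAVS and STING, was 35.5, 32.1 and 30.5 TPM in vehicle and 30.6, 29.1 and 34.3 after CBL0137, and rose after both drugs to 43.3, 49.5 and 35.2. Combination replicate 3 lay just below vehicle replicate 1, so these groups overlapped. Of 12 transcription factors the sensors act through, 8, 9 and 12 rose after CBL0137, panobinostat and both, with medians of 1.74, 1.58 and 3.53. Irf7, which amplifies interferon genes, went from 1.65, 2.39 and 1.55 TPM in vehicle to 94.9, 88.5 and 263 after CBL0137 (log2 rise 5.53 ± 0.41, adjusted p = 0.000132). Irf3, which MAVS and STING activate directly, was 11.2, 14.8 and 16.4 TPM in vehicle and 10.5, 11 and 14.2 after CBL0137, overlapping groups.

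Some cofactors and inhibitors of RNA sensing rose and others fell, with the falls after both drugs near the share of all genes. Of 21 tested, 6 rose after CBL0137, 10 rose and 5 fell after panobinostat, and 12 rose and 6 fell after both, where 4.99% of all genes rose after CBL0137, 25.5% rose and 16.9% fell after panobinostat, and 35.9% rose and 30.1% fell after both. The helicase Ddx60, a RIG-I cofactor, rose by 3.93 ± 0.36, 1.97 ± 0.41 and 6.0 ± 0.36, whereas the stress-granule protein G3bp1 fell by 0.71 after panobinostat (limma adjusted p = 0.00271). Of 9 other RNA sensors, 6, 8 and 9 rose against the same shares, the 8 after panobinostat becoming 4 under quantile normalization, with Zbp1, a Z-nucleic acid sensor, at 37.2, 41.6 and 115 TPM after CBL0137 beside 0.76, 0.58 and 1.09 in vehicle. Of 9 genes for trafficking of endosomal receptors, 4, 6 and 8 rose. The chaperone Unc93b1, which carries TLR3 to endosomes, was 12.6, 11.9 and 12.9 TPM in vehicle, 33.9, 31.9 and 72.7 after CBL0137, 49.9 and 50.1 after panobinostat and 146, 169 and 106 after both. It rose in all 3 comparisons.

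Of 16 other DNA sensors and DNA-binding cofactors, 1 rose after CBL0137 (Tlr9, by 1.42 ± 0.35, limma adjusted p = 0.0452). That call was lost without vehicle replicate 1, 2 or 3 (adjusted p = 0.0965, 0.110 and 0.153), CBL0137 replicate 1 or 3 (0.0513 and 0.126) or panobinostat replicate 1 or 3 (0.0639 and 0.0633). After panobinostat 1 rose and 7 fell, and after both drugs 2 rose and 11 fell, with list medians of -0.28, -0.38 and -0.50. Among all genes 16.9% fell after panobinostat and 30.1% after both. Hmgb1, an abundant chromatin protein that can present DNA to sensors, fell from 644, 595 and 610 TPM in vehicle to 313 and 334 after panobinostat and 226, 171 and 218 after both. By contrast, of 9 AIM2-like relatives of Ifi204, 7, 7 and 9 rose, with medians of 3.46, 2.41 and 5.90. In the same order 4.99%, 25.5% and 35.9% of all genes rose. Ifi202b, which was closest to Ifi204 in pattern, rose by 4.32 ± 0.29, 3.02 ± 0.32 and 6.34 ± 0.29, and reads may be shared across this cluster of related genes.

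Of 11 inflammasome genes tested, a list that holds other sensors such as Nlrp3 beside the partners of Aim2, 7 rose after CBL0137, 11 after panobinostat (7 called under quantile normalization) and 11 after both. Casp1, the protease that matures interleukins, was 1.77, 2.91 and 2.34 TPM in vehicle, 14.4, 12.8 and 34.1 after CBL0137, 14.1 and 24.1 after panobinostat and 94.3, 94.7 and 68.6 after both. Of 21 regulators of cGAS and STING, 1 rose after CBL0137 (Usp18, by 6.50 ± 0.36), 7 rose and 2 fell after panobinostat, and 9 rose and 8 fell after both. These counts were near the shares of all genes (4.99% that rose after CBL0137, 25.5% and 16.9% after panobinostat, 35.9% and 30.1% after both). Enpp1, which degrades the cGAS product, rose by 1.87 ± 0.24 after panobinostat (limma adjusted p = 0.000649), and Banf1, which shields nuclear DNA from cGAS, fell by 0.63 (adjusted p = 0.00162). Of 18 nucleases and other limits on self nucleic acid, 4 rose after CBL0137 (2 without CBL0137 replicate 3), 7 rose and 4 fell after panobinostat, and 12 rose and 4 fell after both. All 3 subunits of RNase H2, which removes RNA from DNA, fell after panobinostat and after both drugs: Rnaseh2b went from 66.0, 74.0 and 69.1 TPM in vehicle to 30.6 and 30.3 after panobinostat. Trex1, in the same functional class, rose.

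The products of these pathways set the single drugs apart. The transcripts of interferon beta (Ifnb1) and of the alpha interferons Ifna4, Ifna2 and Ifna5 were listed at 0 in all vehicle and all panobinostat tumours. After CBL0137, Ifnb1 was 4.23, 2.49 and 8.65 TPM, and after both drugs 13.7, 25.7 and 3.99. Groups listed at 0 allow no fold change, and as TPM carry no depth, a value of 0 has no known detection limit. Of 11 outputs tested, 9 rose after CBL0137 (6 without CBL0137 replicate 3), 6 after panobinostat (1 under quantile normalization) and 10 after both. The shares of all tested genes that rose were 4.99%, 25.5% and 35.9% in that order. The chemokine Cxcl10 stood at 1.36, 1.62 and 0.96 TPM in vehicle, 96.6, 83.3 and 317 after CBL0137, 5.85 and 4.27 after panobinostat and 1133, 825 and 441 after both. After panobinostat these interferon transcripts were listed at 0 where 10 of the 10 sensor genes were called, or 6 under quantile normalization. Whether the sensor genes and these outputs bear on each other was not tested.

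**Figure D5:**
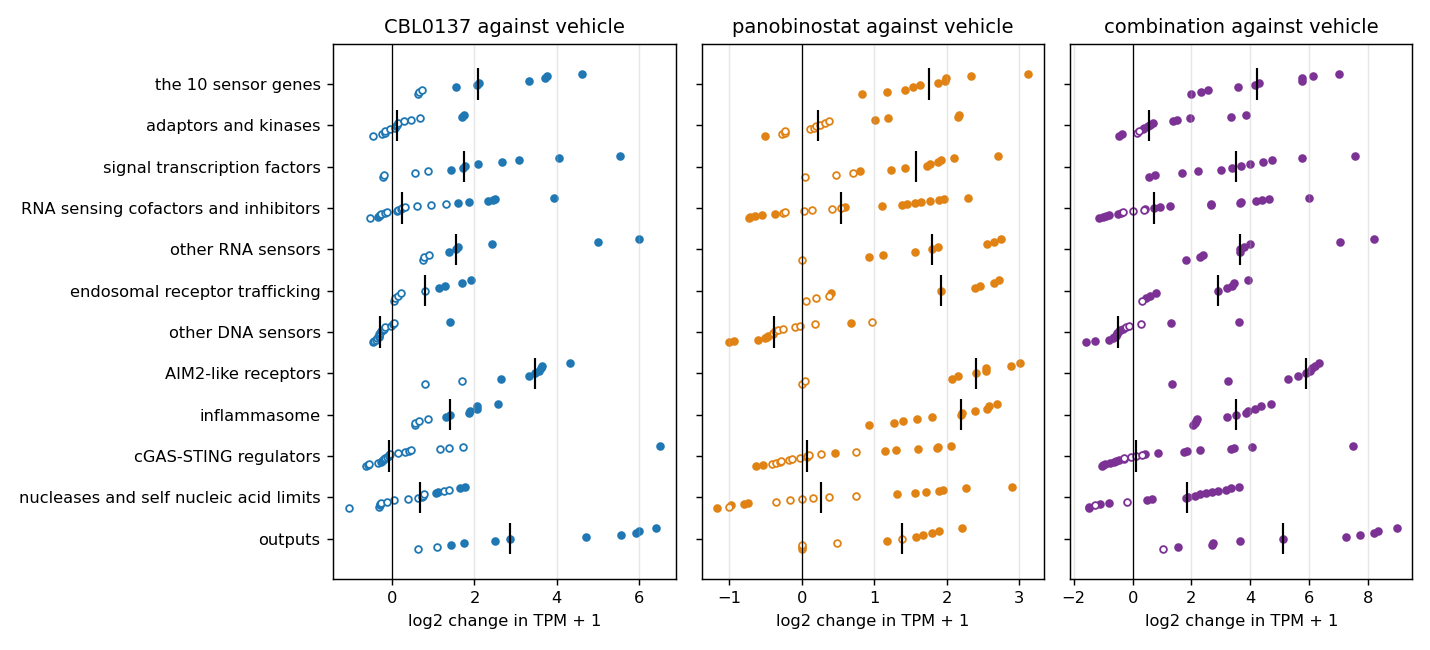
log2 change against vehicle of every tested gene of 12 pathway lists, 1 panel per treatment; filled points passed limma's adjusted p of 0.05 and black ticks mark list medians. The 10 sensor genes (medians 2.08, 1.76 and 4.24) and the AIM2-like receptors (3.46, 2.41 and 5.90) lie to the right, and other DNA sensors (-0.28, -0.38 and -0.50) slightly to the left.

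Across the 11 libraries the 10 genes varied together, with Pearson correlations of log2(TPM + 1) between 0.757 and 0.998 over 45 pairs (median 0.930). These describe libraries that share treatments and composition, and carry no test. The genes outside the 10 with the closest patterns differed by member. Ifih1 was nearest to Parp12 (r = 0.998), Ddx58 to Ddx60 (0.999) and Dhx58 to Parp14 (0.998), and Trex1 to Trim34a (0.997). Mavs was nearest to the noncoding host gene Snhg18 (0.996) and Cst3 (0.994), Mb21d1 to Usb1 (0.990), and Tlr3 to Themis2 (0.997). Tmem173 was nearest to Btk (0.996), Dock2 (0.995) and Arhgap30 (0.995), and Aim2 to Dennd1c (0.993).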

How the data were processed

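Total RNA of flash-frozen tumours was sequenced from stranded libraries after ribosomal RNA depletion, 1 library per tumour, per the labels' protocols. Values are TPM as deposited by the authors for 24411 genes, made with STAR, SAMtools, RSEM and mm10 per the submitters' processing notes. Versions, settings, annotation and counting strand are not given in the sources used here. For 27 rows whose symbol had turned into a date, the transcript identifier was used.

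The test kept the 15497 genes that reached 1 TPM in 2 libraries or more and dropped 8914. One limma 3.58.1 model (R 4.3.3) of log2(TPM + 1) fitted the means of 4 groups over 11 libraries, with a trend and 7 residual degrees of freedom, 2-sided, with Benjamini-Hochberg adjustment and a threshold of 0.05. TPM keep no depth, so precision rests on the replicates. The 10 genes and all lists were chosen with earlier results of these data known. All 10 genes are named in every comparison. From each list up to 4 called members with the lowest adjusted p and at least 1 TPM in the higher group are named, and for each of the 10 genes the 3 nearest patterns were found. Tbk1, Irf3, Zbp1, Unc93b1, Casp1, Hmgb1, Cxcl10, the interferons, Enpp1, Banf1, Rnaseh2b, Th and Dbh were singled out, or shown by library, after their values were seen. Markers of 11 cell types were summed, and the sum for tumour markers is not reported here. Data were simulated with 15497 genes, of which 100 changed by 1 and 100 by 2 (log2) in 1 group. For CBL0137 against vehicle the model recovered 57% of changes of 1 and 86% of changes of 2. For CBL0137 against panobinostat it recovered 43% and 83%. More genes were called in the data (774 rises and 175 falls after CBL0137), so these shares describe the simulated setting and not the power for these data.

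Alternatives varied the pseudocount (0.1 or 5), the filter (none, or 5 TPM), the scaling (median ratio, quantile normalization, or totals without 1376 small structural RNA and histone genes), the model (a replicate block, array weights, no trend, or a fit of the compared groups alone) and the libraries (each left out in turn, or both libraries highest in B cell transcripts). Promoters and coordinates come from RefSeq GRCm38.p6. Python 3.11.15, numpy 2.4.6, pandas 2.3.3 and matplotlib 3.10.9 were used.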

Additional observations from a re-analysis of the deposited data

How the results depend on the processing

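None of the called changes of the 10 genes changed direction under the 23 alternatives (22 for the interaction, which needs all groups). All calls for the combination against vehicle and against CBL0137, and those of Ifih1, Ddx58, Dhx58, Trex1 and Ifi204 for CBL0137 against vehicle, passed under every alternative. The 10 genes called after panobinostat became 6 under quantile normalization and 6 to 10 with 1 library left out. The 5 called between CBL0137 and panobinostat became 3 with no filter, 2 with the replicate block, 0 when only those groups were fitted, and 0 to 7 with 1 library left out. With 1 library left out, 6 to 7 were called for CBL0137 against vehicle, 10 for the combination against vehicle and against CBL0137, and 6 to 9 against panobinostat. Where panobinostat was left with 1 library, it was assumed to vary like the other groups. The interaction was called for 0 of the 10 under every alternative; among all genes it was called for 6 above and 14 below the sum with no filter, 7 and 4 with array weights, and 1 and 43 without panobinostat replicate 1. After CBL0137, Tlr3 and Tmem173 did not pass with a pseudocount of 5 (limma adjusted p = 0.0577 and 0.0901). Tmem173 also did not pass with no filter (0.0920), the replicate block (0.0639) or a fit of the compared groups alone (0.0536). Mavs, Mb21d1 and Aim2 passed with array weights (0.0129, 0.0140 and 0.0422). After panobinostat, Trex1, Mb21d1 and Tlr3 did not pass with a pseudocount of 5 (0.0612, 0.174 and 0.0797). Mb21d1, Trex1 and Aim2 did not pass there with no filter (0.0617, 0.0797 and 0.0524). Quantile normalization moved the median change of all genes from 0.10 to -0.18 after panobinostat and from 0.08 to -0.26 after both drugs, and the changes of the 10 genes are relative to it. Same-numbered libraries did not deviate together (15 pairs, r from -0.26 to 0.19, 2 above 0.1, and 1 library closest to its own number). Deviations from the mean of 2 or 3 libraries are tied to each other, so this check cannot settle whether the numbers pair tumours. With the replicate block 6 of the 10 were called after CBL0137, 7 after panobinostat, and 10 after both. The cause of these shifts was not tested. TPM give no depth, so levels near 0, as for Mb21d1 in vehicle, have no known detection limit.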
